A study of Saccharomyces cerevisiae with 6 samples.

Results

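The GET pathway of the budding yeast Saccharomyces cerevisiae was followed through its 6 genes, SGT2, GET4, MDY2 (also called GET5), GET3, GET1 and GET2, in RNA that had condensed into assemblies in a test tube and in total RNA. The members were taken by their open reading frame names, YOR007C, YOR164C, YOL111C, YDL100C, YGL020C and YER083C, out of 6603 open reading frames, and all 6 passed the filter on low values that left 5670 genes to be tested. The genes were chosen by their place in the pathway with their normalised reads in both groups of libraries, and so the difference between the groups, already known. Their changes are therefore given as a description and carry no test of their own. The RNA of both groups was extracted from BY4741 yeast that was in log phase and untreated. This is a common laboratory strain of mating type a without LEU2, URA3 and MET17 and with a partial deletion of HIS3. One group comprised 3 libraries of assemblies, labelled as phase-separated RNA, from extracted RNA at 150 mM NaCl, 10% polyethylene glycol (PEG) and 1 mM MgCl2, and the other comprised 3 libraries of total RNA. All were depleted of ribosomal RNA. The assemblies formed from RNA already taken out of the cells. The labels carry the same buffer text for both groups and do not settle whether the total RNA was ever placed in that buffer.

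The libraries held 8749240 to 10531980 reads on open reading frames. The 3 genes deleted from the strain had at most 0.862 normalised reads in any library, the 5 markers of mating type a had 226.3 to 8598, and the 3 markers of mating type alpha had at most 35.0. Within the groups, read counts of total RNA libraries 1 and 2 gave a chi-square of 1.56 per degree of freedom and all other pairs gave 11.7 to 57.5. The labels do not say that libraries came from separate cultures or assembly reactions, so errors and p-values cover the spread among these libraries alone, which may be technical.

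Tail-anchored proteins are held in a membrane by a single segment at their carboxyl terminus, which leaves the ribosome only after translation has ended, so they are inserted after synthesis and not by the cotranslational signal recognition particle. In yeast, Sgt2 takes such a protein from cytosolic Hsp70 chaperones, the complex of Get4 and Get5 bridges Sgt2 to the ATPase Get3, Get3 carries the protein to the endoplasmic reticulum, and the receptor made of Get1 and Get2 releases it into the membrane. Get4, which holds on to Get3, and Get5, the product of MDY2, which holds on to Sgt2 through a ubiquitin-like domain, work as 1 complex, as do Get1 and Get2.

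The 6 mRNAs did not move together. Relative to the median gene, GET4, SGT2 and GET3 had between 7.41 and 4.53 times fewer normalised reads in assemblies, GET1 had 2.63 times fewer, GET2 had 1.21 times as many and MDY2 had 1.62 times as many. Within each of the complexes, one mRNA therefore stood lower in assemblies (GET4, GET1) and, at the deposited scaling, its partner did not (MDY2, GET2). GET2 was not called, and its direction changed with the scaling. The base that set these partners apart most was cytosine. Its share of the coding sequence was 26.1% in MDY2 and 24.9% in GET2. It was 15.1% in GET4, 17.7% in SGT2, 17.9% in GET1 and 19.2% in GET3. Base composition was looked at after the changes had been seen, and its part in them was not tested. GET3 had more cytosine than GET1 but the lower change.

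To show this composition, the stretch of 120 bases whose cytosine share is nearest to that of its whole coding sequence is printed for each gene, in frame, from the coding strand, 5′ to 3′ (RefSeq, build R64). Capitals mark cytosine. All 6 genes lie on the minus strand of their chromosomes, in 1 uninterrupted coding exon. The stretches hold 31 cytosines in MDY2 and 30 in GET2, against 18 in GET4 and 21 to 23 in SGT2, GET1 and GET3.
MDY2, chrXV:108777-108896: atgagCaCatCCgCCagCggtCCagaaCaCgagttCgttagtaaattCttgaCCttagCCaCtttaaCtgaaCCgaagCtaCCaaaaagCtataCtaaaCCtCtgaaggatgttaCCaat
GET2, chrV:326864-326983: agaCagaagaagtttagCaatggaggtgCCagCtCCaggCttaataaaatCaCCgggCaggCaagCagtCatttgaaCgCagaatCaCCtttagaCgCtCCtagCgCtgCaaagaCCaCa
GET1, chrVII:457751-457870: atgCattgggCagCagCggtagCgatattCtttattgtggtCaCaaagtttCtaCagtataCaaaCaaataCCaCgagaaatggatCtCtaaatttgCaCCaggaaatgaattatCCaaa
GET3, chrIV:283057-283176: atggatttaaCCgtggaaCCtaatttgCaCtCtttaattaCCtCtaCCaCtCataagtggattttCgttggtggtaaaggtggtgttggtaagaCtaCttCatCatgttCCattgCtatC
SGT2, chrXV:339856-339975: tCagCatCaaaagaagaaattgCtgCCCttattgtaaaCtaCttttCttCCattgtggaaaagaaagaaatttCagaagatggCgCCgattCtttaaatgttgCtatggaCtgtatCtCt
GET4, chrXV:644171-644290: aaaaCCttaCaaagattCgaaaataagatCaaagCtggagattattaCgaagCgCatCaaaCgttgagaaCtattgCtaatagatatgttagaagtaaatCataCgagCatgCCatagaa

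The first step of the route is the hand-over from Sgt2 to Get3 through Get4 and Get5. SGT2, which encodes the small co-chaperone that takes the client from Hsp70, lies on chromosome XV at 338938 to 339978. In the assemblies it had 732.1, 676.6 and 464.4 normalised reads (libraries 1, 2 and 3), beside 3472, 3322 and 3195 in the total RNA. Every assembly library lay below every total RNA library, and assembly library 3 was the lowest. The means were 624.4 ± 141 and 3330 ± 139 (SD, n = 3 libraries each), and the log2 fold change from limma, on log2(normalised reads + 1), was -2.44 (SE 0.16).

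GET4, the adaptor that binds Get3, lies on chromosome XV at 643394 to 644332. In the assemblies it had 137.7, 118.6 and 84.9 normalised reads (libraries 1, 2 and 3), beside 781.8, 803.1 and 918.1 in the total RNA. The groups were far apart, and assembly library 3 was again the lowest. The means were 113.7 ± 26.7 and 834.3 ± 73.3 (SD, n = 3 each), with a log2 fold change of -2.89 (SE 0.17), the lowest of the 6. The assembly values rest on 113, 98 and 72 reads.

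MDY2 encodes the partner of Get4 and lies on chromosome XV at 108258 to 108896. In the assemblies it had 824.7, 997.4 and 729.6 normalised reads (libraries 1, 2 and 3), beside 537.8, 528.2 and 494.4 in the total RNA. Every assembly library lay above every total RNA library. The means were 850.6 ± 136 and 520.2 ± 22.8 (SD, n = 3 each), with a log2 fold change of 0.70 (SE 0.14). When all libraries were given equal totals, which put the median log2 fold change of all genes at -0.54, it was 0.13 and MDY2 was not called.

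GET3, the ATPase that shields the client's membrane segment in the cytosol, lies on chromosome IV at 282112 to 283176. In the assemblies it had 819.9, 723.8 and 472.7 normalised reads (libraries 1, 2 and 3), beside 2844, 2949 and 3117 in the total RNA. The groups did not overlap. The means were 672.1 ± 179 and 2970 ± 138 (SD, n = 3 each), with a log2 fold change of -2.18 (SE 0.18).

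The last step is the receptor in the membrane of the endoplasmic reticulum. GET1, the subunit related to the insertases of the Oxa1 family, lies on chromosome VII at 457163 to 457870. In the assemblies it had 140.1, 130.7 and 104.9 normalised reads (libraries 1, 2 and 3), beside 305.2, 333.5 and 350.4 in the total RNA, with no overlap. The means were 125.2 ± 18.2 and 329.7 ± 22.8 (SD, n = 3 each), with a log2 fold change of -1.40 (SE 0.15).

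GET2, the subunit whose cytosolic tail first catches Get3, lies on chromosome V at 326174 to 327031. In the assemblies it had 863.7, 796.4 and 592.9 normalised reads (libraries 1, 2 and 3), beside 626.2, 605.8 and 604.4 in the total RNA. Assembly libraries 1 and 2 lay above the total RNA libraries and assembly library 3 just below them, so the groups overlapped. The means were 751.0 ± 141 and 612.1 ± 12.2 (SD, n = 3 each), with a log2 fold change of 0.28 (SE 0.15). Without assembly library 3 it was 0.44 and GET2 was then called higher; it was -0.29 with equal library totals, and -0.022 when libraries were quantile normalised, so GET2 has no direction that holds across scalings.

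The limma fit over all 5670 genes called GET4, SGT2, GET3 and GET1 lower and MDY2 higher and did not call GET2, at an adjusted p threshold of 0.05. Over all tested genes it called 82.2%, with 40.8% lower and 41.3% higher. With equal library totals these 2316 lower and 2342 higher genes became 3045 and 1584. The libraries of the groups did not overlap for 5 of the 6 members, 4 of them lower and 1 higher in assemblies, and for 85.3% of all tested genes, 42.6% lower and 42.7% higher. Among the 1223 tested nuclear genes within the members' range of coding lengths, limma called 782 lower and 209 higher, so the members' count of 4 lower and 1 higher is close to that of genes of their length. These counts are a description, since this comparison was known when the genes were proposed. The median log2 fold change was -1.79 over the 6 members and 0.02 over all genes tested. The normalised values carry no information on the amount of RNA, so fewer copies of these mRNAs in the assemblies and more copies of other mRNAs cannot be told apart. The fold in the authors' deposited table, the ratio of the group means, is 0.136 for GET4, 0.188 for SGT2, 0.226 for GET3, 0.380 for GET1, 1.23 for GET2 and 1.64 for MDY2.

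**Figure D1:**
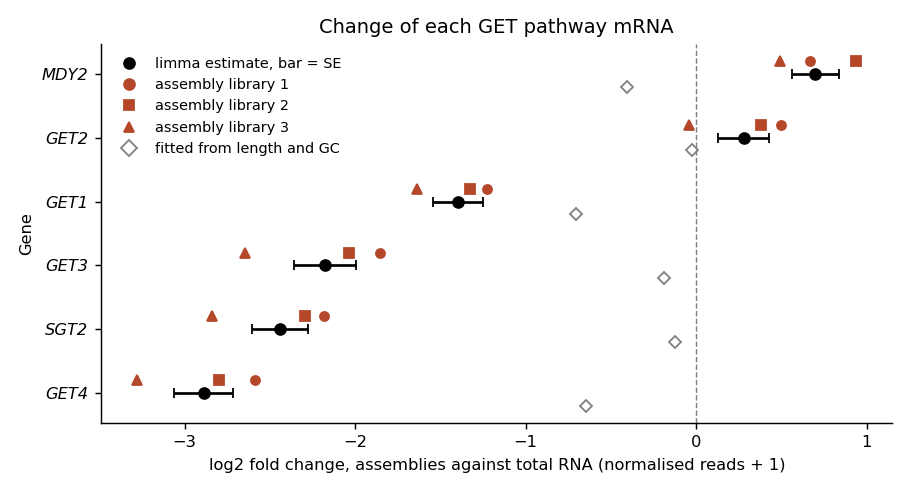
Log2 fold change of each GET pathway mRNA, assemblies against total RNA, on log2(normalised reads + 1). Black points are limma estimates with their SE, coloured points are each assembly library against the mean of the 3 total RNA libraries, and open diamonds are the values fitted from coding length and GC content. GET4, SGT2, GET3 and GET1 lie left of 0 and of their diamonds in every assembly library, and MDY2 lies right of both.

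Per kilobase of coding length, which makes levels comparable between genes, SGT2 and GET3 were the most abundant members in total RNA. SGT2 had 3199 ± 133 normalised reads per kilobase, GET3 2789 ± 130, GET4 888.5 ± 78.1, MDY2 814.0 ± 35.7, GET2 713.4 ± 14.2 and GET1 465.6 ± 32.3 (SD, n = 3 libraries). In this order only the neighbours GET4 (832.6 to 977.7) and MDY2 (773.8 to 841.6) overlapped between libraries. The order was different in assemblies, with MDY2 first at 1331 ± 212 normalised reads per kilobase. GET2 followed with 875.3 ± 164, GET3 with 631.1 ± 168, SGT2 with 599.8 ± 136, GET1 with 176.9 ± 25.7 and GET4 with 121.1 ± 28.5 (SD, n = 3). The ranges of GET2 and GET3 overlapped between libraries, as did those of GET3 and SGT2. GET1 (148.2 at its lowest) and GET4 (146.6 at its highest) nearly met, but in different libraries. Within each assembly library GET2 stood above GET3 and GET1 above GET4. Only GET3 and SGT2 changed order, with 443.8 and 446.1 in assembly library 3.

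The members' summed level was 8869 ± 68.5 normalised reads per kilobase in total RNA and 3735 ± 670 in assemblies (SD, n = 3 each). SGT2 and GET3 made up 36.1% ± 1.7 and 31.4% ± 1.3 of it in total RNA and 16% ± 1.0 and 16.7% ± 1.9 in assemblies. MDY2 went from 9.18% ± 0.47 to 35.9% ± 4.0 and GET2 from 8.04% ± 0.19 to 23.4% ± 1.0. The share of GET4 was 10.0% ± 0.80 in total RNA and 3.22% ± 0.29 in assemblies, while that of GET1 was 5.25% ± 0.34 and 4.76% ± 0.27, whose ranges overlapped.

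**Figure D2:**
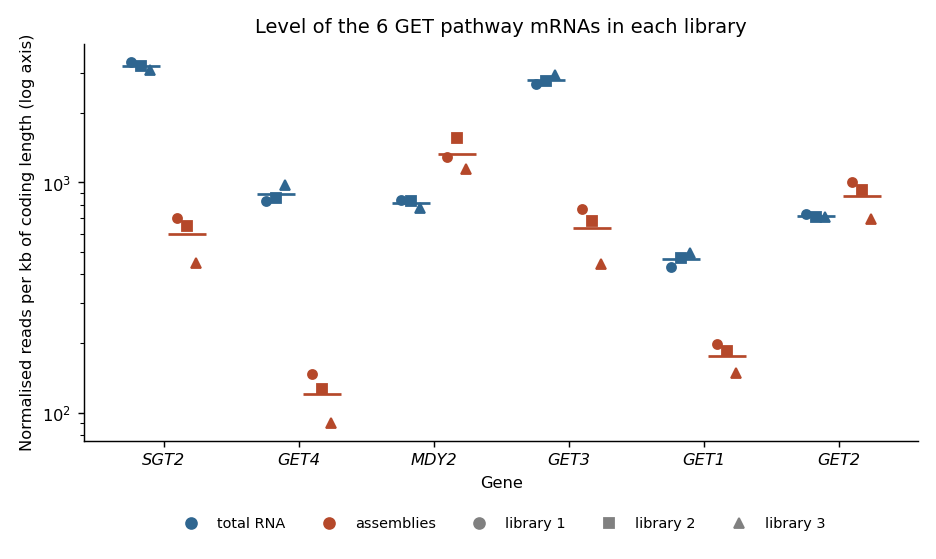
Normalised reads per kilobase of coding length (log axis) of each GET pathway gene in each library. Symbols mark library 1, 2 or 3 and lines mark the means. SGT2 and GET3 lead in total RNA, and MDY2 leads in assemblies at 1331.

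The ratio between the mRNAs of a complex is the same whatever single factor a library is scaled by. Quantile normalisation, which applies no single factor, brought the log2 fold changes of GET1 and GET2 closer, to -1.0 and -0.022 from -1.40 and 0.28. In total RNA, GET4 and MDY2 were near parity per kilobase, with ratios of GET4 to MDY2 of 0.989, 1.04 and 1.26 in libraries 1, 2 and 3. In assemblies this ratio was 0.114, 0.0809 and 0.0792, so MDY2 exceeded its partner 11.3 ± 2.1 times (SD, n = 3). For the receptor, the ratio of GET1 to GET2 was 0.591, 0.667 and 0.703 in total RNA and 0.197, 0.199 and 0.214 in assemblies, where GET2 exceeded GET1 4.93 ± 0.23 times (SD, n = 3). Both ratios were lower in every assembly library than in every total RNA library.

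GET3 and SGT2, the most abundant members in total RNA, kept nearly the same ratio. GET3 per kilobase was 0.801, 0.868 and 0.954 times SGT2 in the total RNA (libraries 1, 2 and 3) and 1.09, 1.05 and 0.995 times in the assemblies. The means of 0.874 ± 0.077 and 1.05 ± 0.050 (SD, n = 3 each) differed by a small factor beside those of the other pairs, although the ranges did not overlap.

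**Figure D3:**
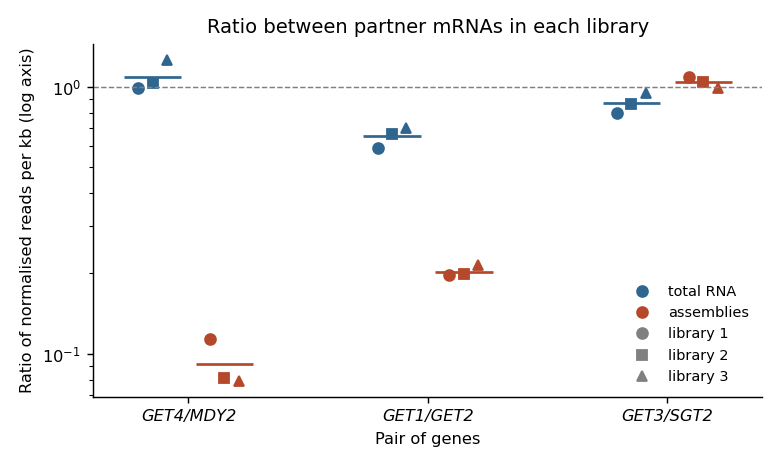
Ratio of normalised reads per kilobase (log axis) between partner mRNAs in each library. Lines mark the means, and the dashed line marks a ratio of 1. GET4/MDY2 goes from near 1 in total RNA to between 0.0792 and 0.114 in assemblies, and GET1/GET2 from between 0.591 and 0.703 to between 0.197 and 0.214.

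Coding length was examined next. The order of the members did not follow it: MDY2, the highest, has the shortest coding sequence (639 nt), followed by GET1 (708 nt), GET2 (858 nt) and GET4 (939 nt), and the low SGT2 and GET3 have the longest (1041 and 1065 nt). Among the 1223 tested nuclear protein-coding genes from 639 to 1065 nt, the median log2 fold change was -0.81 and the quartiles were -1.45 and 0.017. GET4 stood above 0.164% of these genes, SGT2 above 2.04% and GET3 above 4.91%. GET1 stood above 27.1%, between the quartiles, and GET2 and MDY2 above 80.6% and 88.1%.

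A linear model of the log2 fold change on coding length and GC content over 5502 nuclear genes (residual SD 0.94) was used to set each member against its own length and GC content. The log2 fold change left was -2.31 for SGT2, -2.24 for GET4, -1.99 for GET3, -0.69 for GET1, 0.30 for GET2 and 1.10 for MDY2. SGT2, GET4 and GET3 were thus more than 2 residual SDs below the model, while GET1 and GET2 were within 1. With a local regression in place of the linear model, the values were -2.03 for SGT2, -2.02 for GET4, -1.68 for GET3, -0.42 for GET1, 0.38 for GET2 and 1.16 for MDY2. The distances of GET3 and GET1 thus depend on the model, and that of GET3 falls short of 2 of the linear model's residual SDs.

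Base composition was looked at after the changes had been seen. Within the 1223 genes of the members' length range, MDY2 and GET2 had a higher cytosine share than 97.4% and 95.2% of genes, and GET4 a higher one than 4.82%. SGT2, GET1 and GET3 stood above 31.6%, 36.0% and 55.6%, around the median of 18.8%. The cytosine share and the log2 fold change had a Spearman's rho of 0.374 over these 1223 genes, against -0.096 for guanine, -0.116 for adenine, -0.128 for uracil, 0.236 for GC content and 0.194 for coding length. These are descriptions across genes, which share libraries and are not replicates, out of 9 relations computed. The cytosine share at the third codon position gave 0.228, and there GET3 (24.2%) was close to GET2 (24.1%) although the changes of these mRNAs differed by over 2 on the log2 scale.

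The 1223 genes were also divided by cytosine share into 3 groups of near equal size. The median log2 fold change was -1.13 in the 408 genes with the lowest cytosine share (up to 17.8%), -0.85 in the middle 407 and -0.28 in the 408 with the highest (above 20.0%). In the lowest group limma called 319 genes lower and 26 higher, and in the highest 186 lower and 128 higher. GET4 and SGT2 belong to the lowest group, GET1 and GET3 to the middle one, and MDY2 and GET2 to the highest. SGT2 (-2.44) and GET4 (-2.89) lay below the lower quartile of their group, -1.69, and MDY2 (0.70) lay just above the upper quartile of its group, 0.64. GET3 (-2.18) lay below the lower quartile of the middle group, -1.47. The groups are broad, with the lowest reaching 17.8% beside 15.1% in GET4, so they are not closely matched to the members.

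**Figure D4:**
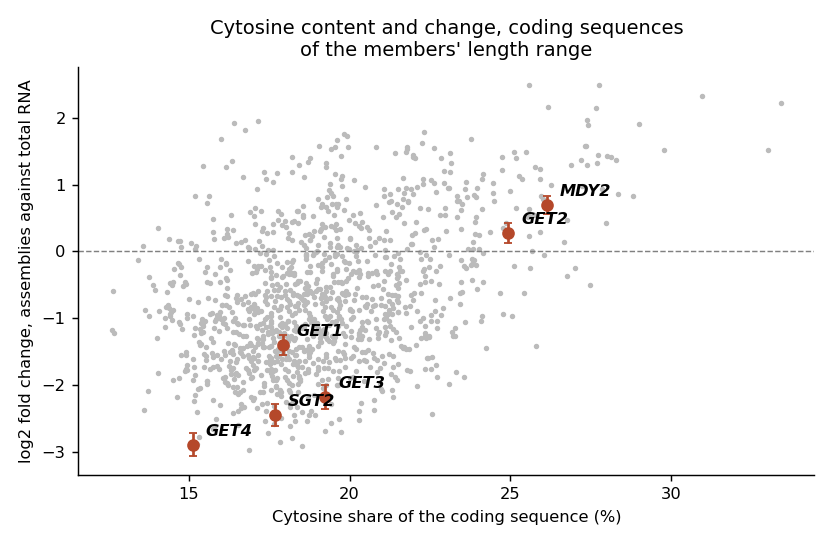
Log2 fold change, assemblies against total RNA, by the cytosine share of the coding sequence (%) for the 1223 tested nuclear genes between 639 and 1065 nt. Grey points are genes, and coloured points with SE bars are the GET pathway members. MDY2 and GET2 lie at the right with 26.1% and 24.9%, and GET4 at the lower left with 15.1%.

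Uracil ran the other way in the partners, with 32.3% in GET4 against 22.5% in MDY2 and 29.2% in GET1 against 25.8% in GET2. The predicted folding of the coding sequence alone did not follow the changes. The minimum free energy per 100 nt, more negative for a more stable fold, was -21.8 kcal/mol for GET4 and -22.2 for MDY2, which had the lowest and the highest change, and lay between -24.2 and -25.7 for the other 4. Over the 1223 genes rho between the change and this energy was 0.035, while that between GC content and the energy was -0.732. Coding sequences hold no untranslated regions, so features of those were not examined.

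No RefSeq gene overlapped a member, and no member had a near-identical copy (at least 95% identity over 50% of its length). The 3′ ends of 3 coding sequences face those of neighbours, MSB4 at 69 bases from MDY2, DDP1 at 86 bases from GET4 and ALK1 at 95 bases from GET1. The log2 fold change of DDP1 was -1.84, that of MSB4 -0.71 and that of ALK1 1.24, so MDY2 and GET1 each differed in sign from the gene they face. The sources used here do not say whether reads were counted by strand, and the part of neighbouring transcripts in these values was not tested.

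For each member, the gene with the nearest profile over the 6 libraries was found among 4705 genes whose normalised reads averaged 100 or more, by Euclidean distance of log2 values centred on each gene's mean. RPS25B, a ribosomal protein gene, was nearest to SGT2 (distance 0.122), and NOP10, a subunit of box H/ACA ribonucleoproteins, was nearest to GET4 (0.134). RPL35A, another ribosomal protein gene, was nearest to GET3 (0.107), and NHP6A, a chromatin protein gene, was nearest to GET1 (0.128). These 4 neighbours have coding sequences of only 177 to 363 nt. ARP5, a subunit of the INO80 remodeller with 2268 nt, was nearest to MDY2 (0.117), and THR1, homoserine kinase with 1074 nt, was nearest to GET2 (0.15).

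Tail-anchored proteins, not all of which are clients of the pathway, were examined in 3 lists. Of 38 genes, 29 fell and 7 rose (limma, adjusted p threshold 0.05), with a median log2 fold change of -1.0 and a median coding length of 675 nt. Over all tested genes 40.8% were called lower and 41.3% higher, and the median residual of these 38 genes in the linear model on coding length and GC content was -0.080. Among 20 SNAREs, the proteins that fuse vesicles with their target membranes, 16 fell and 3 rose. BET1 had the lowest log2 fold change (-2.23), with a mean of 83.3 normalised reads over the 6 libraries. Among SNAREs with a mean of at least 100, the endoplasmic reticulum SNARE UFE1 (-1.89), the exocytic SNC1 (-1.89) and the vacuolar NYV1 (-1.48) were lowest. The exocytic SSO2 (0.66), SEC20 (0.65), which works with Ufe1, and the Golgi SNARE GOS1 (0.63) were the higher ones (limma, adjusted p between 1.79e-06 and 0.00137 for these 6, BET1 aside). With equal library totals the calls of SSO2, SEC20 and GOS1 were lost, at 0.092, 0.090 and 0.067, and after quantile normalisation that of SSO2 was lost.

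Of 11 other tail-anchored proteins of the endoplasmic reticulum, 7 fell and 3 rose, beside 40.8% and 41.3% of all tested genes. SSS1 (-2.09) and SBH2 (-1.73), small subunits of translocons, and CYB5, cytochrome b5 (-1.92), were lowest. FRT1, a membrane protein linked to stress tolerance (1.2), and DPM1, dolichol phosphate mannose synthase (0.93), rose, and HLJ1, a J protein, was called at 0.33 (limma, adjusted p between 3.26e-07 and 0.0313 for these 6). The call of HLJ1 did not survive leaving out assembly library 1 or any of the total RNA libraries (0.26 to 0.36), and it turned to -0.24 with equal totals. DPM1 was not called after quantile normalisation (0.16). Of 7 tail-anchored proteins of mitochondria and peroxisomes, 6 fell, led by the mitochondrial import complex subunits TOM22 (-2.44), TOM6 (-2.42) and TOM5 (-2.28), and the GTPase GEM1 rose (1.52; limma, adjusted p between 3.17e-07 and 6.21e-07 for these 4).

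**Figure D5:**
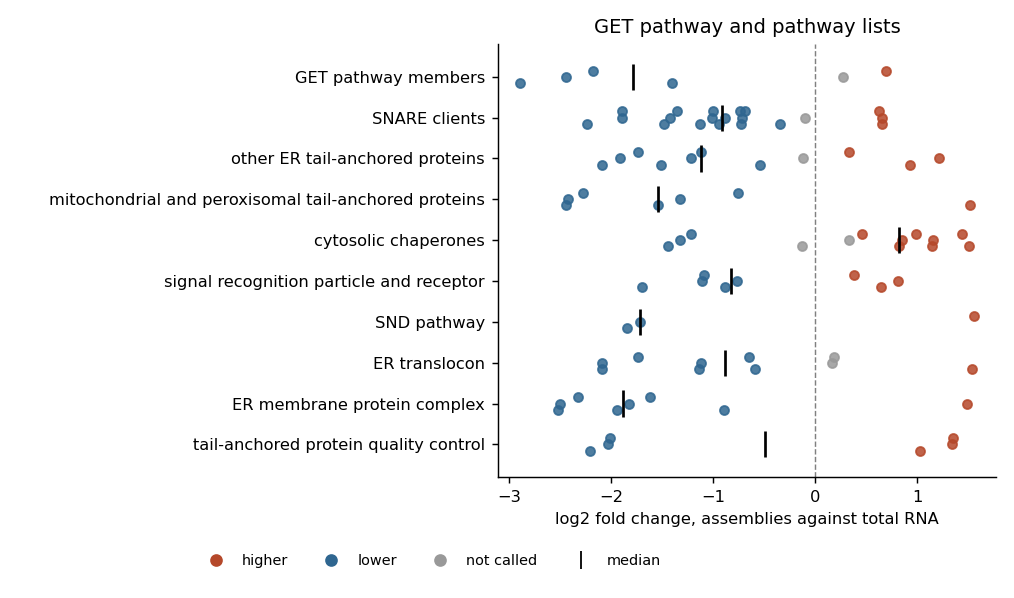
Log2 fold change, assemblies against total RNA, of the GET pathway members and of the genes in 9 pathway lists. Colours mark genes called higher, lower or not called by limma over all genes, and black bars mark medians. The chaperones have the highest median (0.82) and the membrane protein complex of the endoplasmic reticulum the lowest of the 9 lists (-1.88).

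Upstream of Sgt2 stand the cytosolic chaperones, of which 8 of 13 rose and 3 fell, with a median log2 fold change of 0.82 and a median coding length of 1929 nt, beside 41.3% of all tested genes called higher and 40.8% lower. Their median residual in the model on coding length and GC content was 0.065. The Hsp70 SSA3 (1.51), the disaggregase HSP104 (1.44) and the Hsp70 and Hsp90 adaptor STI1 (1.15) were highest. The Hsp90 gene HSC82 (-1.44) and the J proteins YDJ1 (-1.32) and SIS1 (-1.21), which serve Hsp70, were lowest (limma, adjusted p between 8.72e-07 and 0.00120 for these 6). Reads of SSA1 and SSA2 (96.4% identity), of SSB1 and SSB2 (97.5%) and of HSC82 and HSP82 (91.7%) may be shared.

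The other routes to the endoplasmic reticulum and the genes for misplaced proteins follow, in 5 lists whose median residuals in the same model ran from -0.79 for the membrane protein complex to 0.17 for the signal recognition particle. Of 8 genes of the signal recognition particle and its receptor, 5 fell and 3 rose, beside 40.8% and 41.3% of all tested genes. The receptor's beta subunit, YKL154W (-1.69), SRP14 (-1.10) and SRP54 (-1.09), which binds the signal sequence, were lowest. SRP72 (0.81), SRP68 (0.65) and the receptor's alpha subunit, YDR292C (0.39), were the higher ones (limma, adjusted p between 4.16e-06 and 0.0131 for these 6). The calls of these 3 were lost or reversed with equal totals (0.25, 0.081 and -0.18) and after quantile normalisation (0.070, -0.11 and -0.14), and that of YDR292C was also lost without total RNA library 2 (0.37). Of the 3 genes of the SND pathway, a targeting route that can stand in for GET, SND2 and SND3 fell (-1.84 and -1.72) and SND1 rose (1.56).

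Of 10 genes of the translocon, 7 fell and SEC61, the channel, rose (1.53). SEC66 (-2.09), and SSS1 and SBH2, which the tail-anchored list also holds, were lowest. Over all tested genes 40.8% were called lower and 41.3% higher. Within the members' length range, 782 of 1223 genes were called lower and 209 higher. Of 8 genes of the membrane protein complex of the endoplasmic reticulum, which also inserts tail-anchored proteins, 7 fell. SOP4 (-2.52), EMC3 (-2.50), whose product is a relative of Get1, and EMC6 (-2.32) were lowest, and EMC1, the largest subunit with 2283 nt, rose (1.49). Of 6 genes that deal with misplaced or faulty tail-anchored proteins, CUE1 (-2.20), UBC7 (-2.02) and MSP1 (-2.01), an ATPase that extracts misplaced ones from mitochondria, fell, and SSM4 (1.35), a ubiquitin ligase, SPF1 (1.35), a transporter ATPase of the endoplasmic reticulum, and the ATPase CDC48 (1.03) rose. The adjusted limma p-values of the genes named in the SND, translocon, membrane complex and misplaced-protein lists lay between 3.17e-07 for SOP4 and 1.25e-05 for CDC48.

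Over the 83 different genes of the 9 lists, 53 fell and 24 rose, beside 40.8% and 41.3% of all tested genes. Their median log2 fold change was -0.88 and their median coding length 804 nt, beside 0.02 and 1248 nt over all tested genes. In the linear model on coding length and GC content, the median residual was -0.16 for the 83 genes and -1.34 for the 6 members. The members' residuals ran from -2.31 for SGT2 to 1.10 for MDY2. With the local regression the members' median was -1.05.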

How the data were processed

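RNA was extracted with phenol and chloroform, depleted of ribosomal RNA with Ribo-Zero and made into paired-end Nextera libraries, per the labels' protocols. The submitters' processing notes name build R64 and, with no order, Bowtie 0.12.7, DESeq 1.22.1, Trimmomatic 0.32, HTSeq and FastQC. The sources used here do not give the strand setting or the annotation. For every library the authors deposited 1 signal value for each open reading frame, described as normalised reads per the file headers, with group means and their ratio as a fold change. All nonzero values (100%) were whole multiples of 1 read within 0.01, so whole reads were recovered from the size-factor scaling.

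Values were compared with limma 3.58.1 (R 4.3.3) on log2(value + 1) with an empirical Bayes trend on genes whose mean over the 6 libraries reached 10; tests were two-sided, and Benjamini-Hochberg adjusted p-values were judged at 0.05. The test was also run on simulated counts in which few genes changed and both groups had the same spread. These data differ in both respects, so that run does not show the error rate here. edgeR 4.0.16 (TMM) and DESeq2 1.42.0 on recovered reads, other pseudocounts (0.5, 5), filters and scalings, a replicate block and left-out libraries were alternatives. Coordinates and coding sequences came from RefSeq R64, which matched 5916 of 6603 identifiers; overlaps were checked among those. Folding used RNAfold 2.7.2 with default settings. Members, lists and tests were chosen with earlier results of these data known. Cytosine content and folding were looked at after the changes were seen. From each list up to 3 called genes at either end with a mean of at least 100 are named.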

Additional observations from a re-analysis of the deposited data

How the results depend on the processing

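Calls changed with the scaling and, among the genes named here for GET2, HLJ1 and YDR292C, with the libraries left out. With equal library totals the median log2 fold change of the 6 members was -2.35, and 14 of the 83 list genes rose, against 24 as reported. There GET2 turned to -0.29, HLJ1 to -0.24 and YDR292C to -0.18. After quantile normalisation GET2 turned to -0.022, SRP68 to -0.11 and YDR292C to -0.14. Over all alternatives the changes of GET4, SGT2, GET3 and GET1 stayed below 0 and that of MDY2 above 0. Leaving out 1 library at a time gave a members' median of -1.91 to -1.61, 2194 to 2344 genes higher and 2190 to 2349 lower, and 21 to 26 list genes higher and 52 to 53 lower. With equal totals 1584 genes were higher and 3045 lower (edgeR: 2232 and 2471).

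The replicate number as a block gave 2375 genes higher and 2350 lower and left the members' median at -1.79. Deviations of same-numbered libraries correlated at 0.078, 0.167 and 0.276 (libraries 1, 2 and 3). Assembly library 2 correlated best with total RNA library 1 (0.220), and the numbers were not taken as pairs. A library 3 of either group correlated negatively with libraries 1 and 2 of the other group (-0.102 to -0.264). Deviations from the group mean cancel out within a group for each gene. These negative values are therefore not independent of the 0.276 between the libraries numbered 3. Whether the libraries numbered 3 share a batch was not tested.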
